A study of Arabidopsis thaliana with 9 samples.

Results

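The mitochondrially encoded genes of *Arabidopsis thaliana* were taken as every gene whose identifier starts with ATMG in the gene read count tables, which gave 146 genes of 33602. They were followed in wild-type plants and in 2 mutants of protein arginine methyltransferases, enzymes that add methyl groups to arginines of histones and of proteins that bind RNA. The wild type was Columbia (Col). The *prmt5* plants carried the *prmt5-5* allele of PRMT5, which makes symmetric dimethylarginine, and the *prmt4a;4b* plants carried T-DNA insertions in both PRMT4A and PRMT4B, which make asymmetric dimethylarginine; both were in the Columbia background. All plants were stratified for 4 d at 4 °C, grown on agar medium at 22 °C in continuous light and harvested whole at 15 d according to the labels, while the study's methods give a younger age, so each library mixed the organs of a seedling. There were 3 libraries per genotype and 9 in all, each made from 3 µg of total RNA after poly(A) purification, with random hexamers and 12 PCR cycles, in a preparation that does not mark the strand. The 2 mutants were compared with the same 3 wild-type libraries. The labels do not say whether the libraries of a genotype came from separate cultures, so the p-values measure only the spread between these samples.

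The plant mitochondrial genome keeps a small set of the genes that the organelle needs. They encode the rRNAs and part of the tRNAs and proteins of the mitochondrial ribosome, core subunits of respiratory complexes I (*nad* genes), III (*cob*) and IV (*cox* genes) and of the ATP synthase or complex V (*atp* genes), proteins that attach heme to cytochrome c (*ccm* genes), a maturase (*matR*) and a transport protein (*mttB*). The remainder of each complex is encoded in the nucleus, and so are the proteins that transcribe, splice, edit and degrade mitochondrial RNA. Many mitochondrial transcripts carry group II introns, are edited from C to U and end without a stable poly(A) tail, since a poly(A) tail in plant mitochondria marks RNA for degradation. Of the 146 genes, 84 were annotated as open reading frames of unknown function (ORF), 21 as tRNAs, 14 as complex I genes or gene pieces, 7 as ribosomal proteins, 6 as complex V, 5 as cytochrome c maturation, 3 as complex IV, 3 as rRNAs, 2 as *matR* and *mttB* and 1 as *cob*.

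Libraries held 25029646 to 39904677 gene reads, of which the mitochondrial genes took 6136 to 21069. Of the 146 genes, 22 had no read in any library and 61 had at least 20 reads over the 9 libraries. The genes *rrn26*, *rrn18* and ORF107A together held 91.8% of the mitochondrial reads. PRMT4A had 332, 410 and 284 reads in wild type and 26, 65 and 30 in *prmt4a;4b*, and PRMT4B had 409, 430 and 333 reads in wild type and 14, 32 and 17 in *prmt4a;4b*. PRMT4A was also called lower in *prmt5*, at a log2 change of -0.66 and by the limits given below. PRMT5 had 723, 813 and 623 reads in wild type and 973, 1060 and 859 in *prmt5*, so its read count is no check of that label, and *prmt5* stands here for the libraries labelled so. Of the tissue markers, the summed level of 6 root markers was 44.7 to 80.5 CPM in wild type, 104 to 153 in *prmt5* plants and 63.8 to 96.4 in *prmt4a;4b* plants, where CPM is the number of reads per 1000000 reads of a library whose size was scaled by TMM, that of 3 leaf markers was 49775 to 60071, 63995 to 75522 and 77539 to 103665, and that of 3 seed storage markers was 118 to 194, 28.7 to 401 and 56.5 to 71.2. The markers within a sum did not all move alike. Log2 changes of single leaf markers ran from -0.16 to 0.40 in *prmt5* and from -0.40 to 1.02 in *prmt4a;4b*. Those of root markers ran from 0.22 to 1.56 and from -0.42 to 0.84. Seed storage markers ran from -0.45 to 6.91 in *prmt5*, and the 2 tested in *prmt4a;4b* were at -2.59 and -1.30. The 2 flower markers were at 0 in every wild-type library and reached at most 0.248 CPM. The part of organ composition in the results below was not tested, and in whole plants fewer cells of a type and less RNA per cell cannot be told apart.

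Part of these reads cannot be assigned to the organelle with certainty. A copy of most of the mitochondrial genome lies in chromosome 2 of Columbia, and in the reference (RefSeq, TAIR10.1) 270093 bases of that chromosome lay in stretches of at least 100 bases with at least 98% identity to the mitochondrial sequence. Those of at least 1000 bases lay within chr2:3239038-3509765. Nuclear matches of this kind covered 73.0% of the mitochondrial bases. Of the 126 members found in the reference by name, 90 lay to at least 80% of their length in such a copy and 26 had no base in one. The start of *nad3*, the subunit 3 gene of complex I, and its chromosome 2 copy are shown because no base tells them apart. The capitals in the mitochondrial sequence (Mt:288044-288223, plus strand) mark the 6 C that the reference annotates as edited in this stretch, and capitals in the nuclear one (chr2:3270008-3270187, plus strand) would mark bases that differ, of which there were 0.
nad3: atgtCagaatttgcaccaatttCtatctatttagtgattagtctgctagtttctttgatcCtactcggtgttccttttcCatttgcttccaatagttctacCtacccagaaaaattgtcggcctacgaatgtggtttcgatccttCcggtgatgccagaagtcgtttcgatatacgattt
nad3 nuclear copy: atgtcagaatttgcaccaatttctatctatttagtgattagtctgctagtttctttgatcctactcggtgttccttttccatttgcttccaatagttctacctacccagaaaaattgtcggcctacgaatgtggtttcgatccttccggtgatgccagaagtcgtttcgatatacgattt
Over the 9 libraries *nad3* had 227 reads and its nuclear copy, AT2G07751, 218. Of 43 pairs of a member and a nuclear gene over its copy with at least 20 member reads, 3 had the same count in all 9 libraries (*atp8* with AT2G07707, *rps12* with AT2G07675 and ORF313 with AT2G07718), as had the mitochondrial pair ORF139A and ORF139B. For such members the mitochondrial and the nuclear locus cannot be told apart. The rRNA genes lie outside the copy, with 0% of the bases of *rrn18* and *rrn5* and 0.410% of those of *rrn26* in any nuclear match.

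Mitochondrial genes took a larger share of the gene reads in every mutant library than in any wild-type library. The share was 0.0209%, 0.0216% and 0.0287% in wild-type libraries 1 to 3, 0.0608%, 0.0374% and 0.0432% in those of *prmt5*, and 0.0549%, 0.0387% and 0.0709% in those of *prmt4a;4b*. The means were 0.0237% ± 0.00435 (SD, n = 3), 0.0471% ± 0.0122 and 0.0548% ± 0.0161, which is 1.98 times the wild-type mean in *prmt5* and 2.31 times in *prmt4a;4b*. The exact two-sided permutation test gave p = 0.1 for each mutant against wild type, the smallest that 3 against 3 libraries allow, and 0.15 after Benjamini-Hochberg adjustment over 3 comparisons. The mutants overlapped each other, with a difference of 0.00774 percentage points (exact permutation p = 0.6), and the sign of that difference turned without *prmt4a;4b* library 3 (-0.000308).

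Outside the rRNA genes the ratio to wild type was lower. The 3 rRNA genes held 81.3 to 88.2% of the mitochondrial reads. Without them the share was 0.00377%, 0.00378% and 0.00451% in wild type, 0.00738%, 0.00509% and 0.00568% in *prmt5* plants, and 0.00673%, 0.00723% and 0.00837% in *prmt4a;4b* plants. Again the libraries of neither mutant overlapped those of wild type, and the means were 1.51 and 1.85 times the wild-type mean (exact permutation p = 0.1 each, adjusted 0.15). With ORF107A left out as well, a choice made after the data were seen, they were 1.26 and 1.81 times the wild-type mean (exact permutation p = 0.1 each).

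Other RNA made without a poly(A) tail also took larger mean shares in the mutants. Plastid-encoded genes took 0.340%, 0.323% and 0.5796% of the reads of wild type, 2.10%, 0.604% and 1.04% in *prmt5* plants and 2.55%, 0.869% and 3.94% in *prmt4a;4b* plants. The nuclear genes of cytosolic 18S and 5.8S rRNA took 0.204%, 0.224% and 0.368%, then 0.878%, 0.346% and 0.525%, and 0.928%, 0.394% and 1.33%. Within each mutant the order of the 3 libraries was the same for the mitochondrial, the plastid and the nuclear rRNA share, with libraries 1 and 3 above library 2, and wild-type library 3 was the highest of its group in all 3 shares. The mutants overlapped wild type in the nuclear rRNA share only, through *prmt5* library 2. Set against the nuclear rRNA, the mitochondrial genes had 10.2, 9.66 and 7.80 reads per 100 nuclear rRNA reads in wild type, 6.93, 10.8 and 8.22 in *prmt5* plants and 5.92, 9.83 and 5.33 in *prmt4a;4b* plants. On that scale both mutants overlapped wild type and their means differed from it by -0.592 and -2.21 reads (exact permutation p = 0.8 and 0.3), and per 100 plastid 16S and 23S rRNA reads they differed from it by -1.62 and -3.29 (p = 0.2 and 0.1). The part that carry-over of RNA without a poly(A) tail has in the mitochondrial share was not tested.

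**Figure D1:**
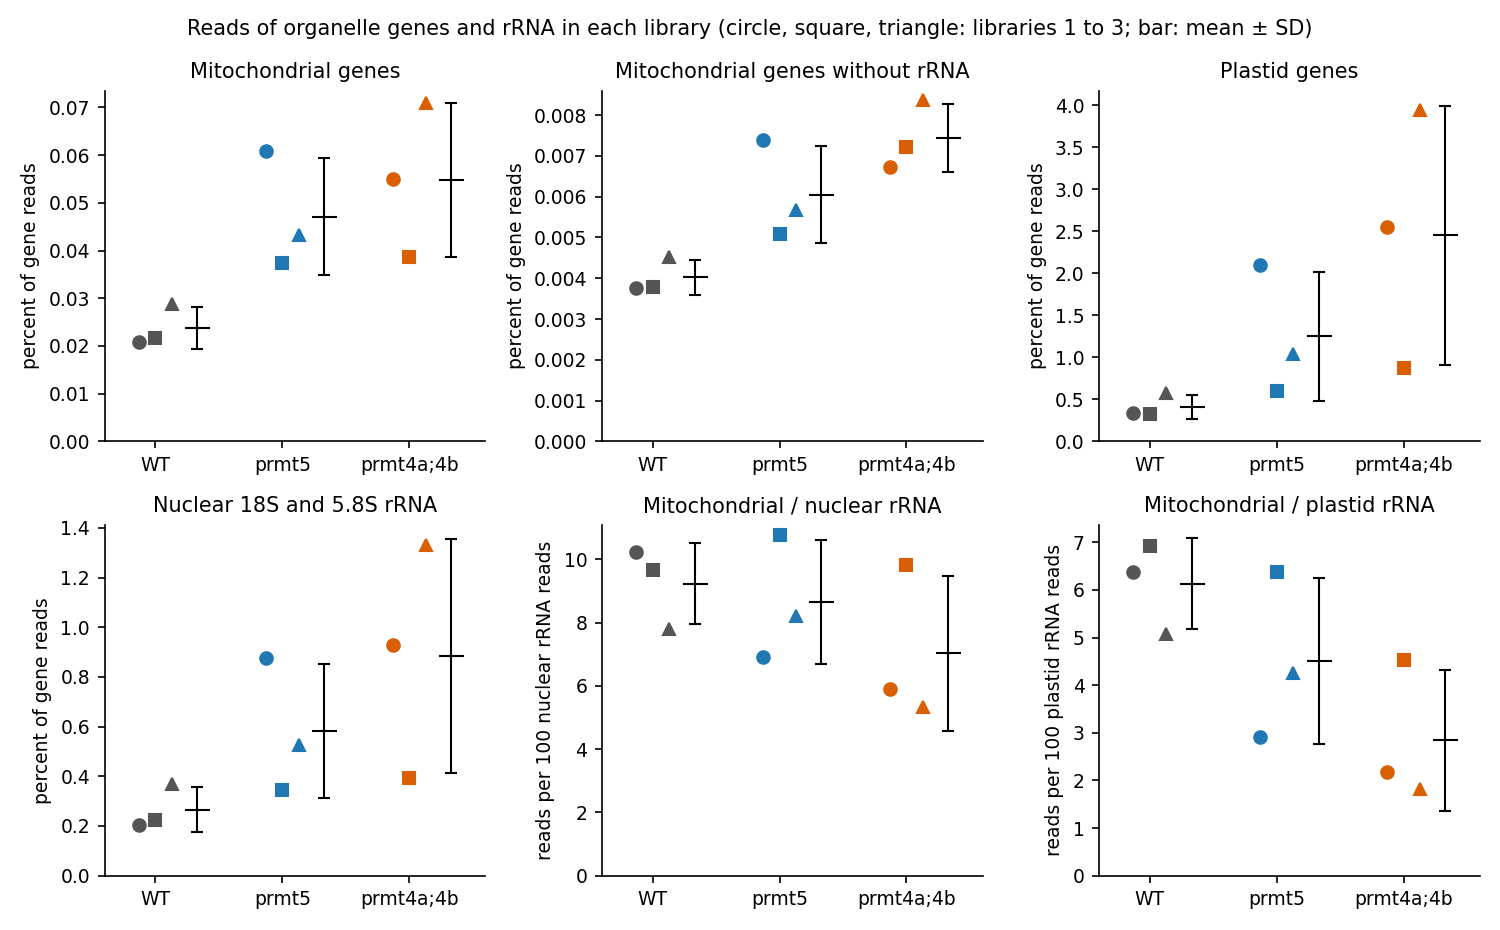
Each panel plots the 9 libraries by genotype, with the mean ± SD of 3 libraries beside them, and the vertical axis gives the percent of gene reads or, in the last 2 panels, mitochondrial reads per 100 rRNA reads. The mitochondrial share of every mutant library, 0.0374% or more, lies above the highest wild-type library at 0.0287%, while the ratios to nuclear rRNA overlap between the genotypes.

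Gene by gene, levels were compared with edgeR's quasi-likelihood test over all genes that averaged 10 or more reads in a genotype compared. Calls, higher or lower, needed a Benjamini-Hochberg adjusted p below 0.1 together with a log2 change exceeding 0.58. In *prmt5*, 37 of the 146 members could be tested, and 7 of them were called higher and 0 lower, beside 11.9% of all 21078 genes tested called higher and 14.2% called lower. At an unadjusted p under 0.05, 0 members were lower, and DESeq2 called 7 higher and 0 lower. The median log2 change was 0.62 over the members and -0.01 over all genes. In 13 members every *prmt5* library lay above every wild-type library, as it did in 24.5% of all genes tested.

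In *prmt4a;4b*, 38 members could be tested, and 21 were called higher and 0 lower, beside 13.8% of all 20844 genes tested called higher and 12% called lower. At an unadjusted p under 0.05, 0 were lower, and DESeq2 called 18 higher and 0 lower. The median log2 change was 1.25, against 0.00 over all genes, and 35 of the 38 values were positive. Every *prmt4a;4b* library lay above every wild-type library in 25 members, against 23.7% of all genes tested. Among the tested members, 25 had a wild-type mean of at least 10 reads in each comparison, and the other 12 and 13 passed the filter only through the mutant, where they were high, so the counts and medians describe those that passed and not all members. Members with at least that wild-type mean made up 7 of the 7 calls in *prmt5* and 14 of the 21 in *prmt4a;4b*. The other calls in *prmt4a;4b*, which the filter favoured, were *nad4*, *cox2*, *cox3*, TRNS.2, ORF107C, ORF131 and ORF315. With the 3 libraries of the highest plastid share left out, chosen after seeing the data, 6 members were called in *prmt5* and 12 in *prmt4a;4b*, where that leaves 1 mutant library whose spread is taken from the others.

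The 7 genes called in *prmt5* were all called in *prmt4a;4b* too, and they were *rrn26*, *rrn18*, *nad3*, *matR*, ORF107A, ORF114 and ORF118. Another 14 were called in *prmt4a;4b* alone, and 7 genes passed the direct test between the mutants. Because both comparisons use the same wild-type libraries, the shared calls are given as a count without a test. The share of all genes called in both mutants is not given here. The shared calls are also not all separate, since ORF114 shares bases with ORF118 and *nad3*, and ORF107A with *rrn26* in the reference. Members with no base in a nuclear copy gave 1 call of 7 tested in *prmt5* and 4 of 8 in *prmt4a;4b*, and those lying to at least 80% in a copy gave 4 of 23 and 12 of 23. These 12 were *nad3*, *nad4*, *cox3*, *atp1*, *atp9*, *ccmFC*, *matR*, ORF107C, ORF114, ORF118, ORF262 and ORF294. Their reads cannot be assigned to the organelle with certainty.

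**Figure D2:**
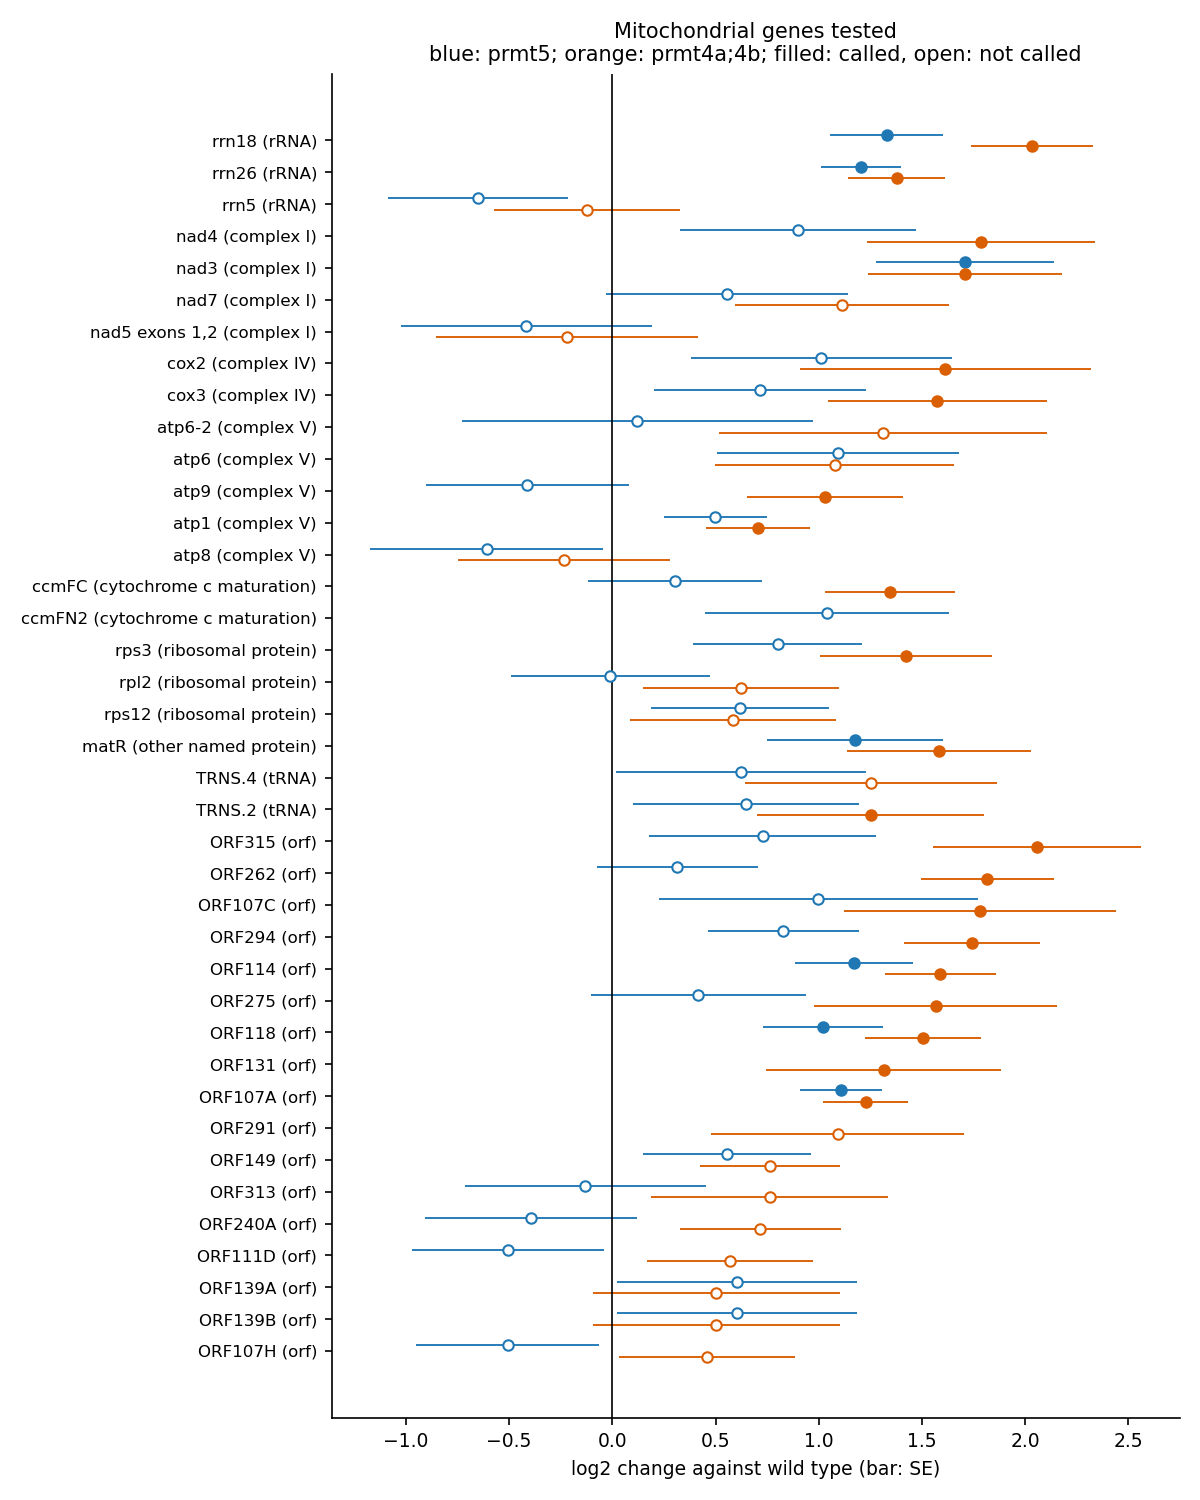
The log2 change against wild type on the horizontal axis is plotted for each tested member, blue for *prmt5* and orange for *prmt4a;4b*, with bars of 1 SE, and filled circles are called. All filled circles lie to the right of 0, from 0.70 for *atp1* to 2.06 for ORF315, and the values left of 0 are open.

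The rRNA genes carried most of the reads, and the large and small subunit rRNAs were higher in both mutants while the 5S rRNA was not. The gene *rrn26*, the 26S rRNA of the large ribosomal subunit, had 115, 117 and 171 CPM in wild type, 399, 245 and 311 in *prmt5* plants and 377, 215 and 452 in *prmt4a;4b* plants. The lowest mutant library was above the highest wild-type library in both. The log2 change was 1.21 (SE 0.20, adjusted p = 0.00142) in *prmt5* and 1.38 (SE 0.24, adjusted p = 0.00111) in *prmt4a;4b*. For *rrn18*, the 18S rRNA of the small subunit, the levels were 38.4, 34.1 and 54.0, then 167, 73.6 and 86.6, and 160, 94.1 and 262. Its groups did not overlap either, and within each mutant the libraries ranged over more than the whole wild-type level. The log2 change was 1.33 (SE 0.27, adjusted p = 0.00442) and 2.04 (SE 0.30, adjusted p = 0.000457), and the difference between the mutants, 0.66, did not pass the direct test (adjusted p = 0.164). The third rRNA gene, *rrn5*, had 37, 18 and 27 reads in wild type, 13, 25 and 22 in *prmt5* plants and 13, 30 and 22 in *prmt4a;4b* plants. Its groups overlapped, with log2 changes of -0.65 (adjusted p = 0.276) and -0.12 (adjusted p = 0.858).

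ORF107A, an open reading frame beside *rrn26*, was also higher in both mutants. Its levels were 12.3, 12.2 and 16.4 CPM in wild type, 39.5, 22.4 and 29.1 in *prmt5* plants and 32.6, 21.9 and 41.2 in *prmt4a;4b* plants, with no overlap of either mutant and wild type. The log2 change was 1.11 (SE 0.20, adjusted p = 0.00225) and 1.23 (SE 0.21, adjusted p = 0.000981). Of the bases of ORF107A, 46.9% lie in a nuclear copy, so part of its reads cannot be assigned to the organelle with certainty. In the files *rrn26* spans 2568 bases and ends 502 bases before ORF107A, whereas in the RefSeq annotation *rrn26* spans 3169 bases and takes in 185 of the 324 bases of ORF107A. The stretch is shown because it places the third most read member, or part of it, inside the rRNA. It lies at Mt:143781-144020 on the minus strand of the reference mitochondrion, is printed in the direction of *rrn26*, and capitals mark the bases that the reference gives to *rrn26*.
ORF107A: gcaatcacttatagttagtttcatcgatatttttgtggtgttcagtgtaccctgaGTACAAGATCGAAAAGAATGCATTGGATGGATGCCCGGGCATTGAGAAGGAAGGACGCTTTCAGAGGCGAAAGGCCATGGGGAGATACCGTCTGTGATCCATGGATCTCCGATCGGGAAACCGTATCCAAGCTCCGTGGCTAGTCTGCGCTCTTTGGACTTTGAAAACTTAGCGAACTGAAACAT
Per kb of annotated exon, wild type had 52.2 CPM for *rrn26*, 42.1 for ORF107A, 21.8 for *rrn18* and 7.40 for *rrn5*. Genes of proteins with a known function were at lower densities, for example 1.24 for *atp9* and 1.21 for *atp1*. The longest run of A was 6 bases in *rrn26* and 5 in *rrn18*.

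Complex I, which oxidizes NADH, had 4 of its 14 genes or gene pieces with enough reads to test. Of these *nad3* was called in *prmt5* and *nad3* and *nad4* in *prmt4a;4b*, with median log2 changes over the 4 of 0.73 and 1.41. Counts of *nad3* were 15, 10 and 6 reads in wild type, 40, 37 and 35 in *prmt5* plants and 28, 22 and 34 in *prmt4a;4b* plants. Every mutant library was above every wild-type library, and in CPM the wild-type levels of 0.461, 0.266 and 0.223 compared with 1.33, 0.918 and 1.01 and with 1.11, 0.740 and 1.31. The log2 change was 1.71 in each mutant (SE 0.43 and 0.47, adjusted p = 0.0123 and 0.0147), which is the largest among the members called in *prmt5*. The nuclear copy AT2G07751 gave 1.59 (adjusted p = 0.0165) and 1.69 (adjusted p = 0.0156). For *nad4*, the subunit 4 gene with 52 annotated editing sites, the counts were 8, 6 and 3, then 13, 10 and 12, and 15, 14 and 20. Its wild-type mean was 5.67 reads, so it passed the filter only through the mutants. No mutant library overlapped wild type, but only *prmt4a;4b* was called, at a log2 change of 1.78 (SE 0.55, adjusted p = 0.0257) against 0.90 (adjusted p = 0.248) in *prmt5*. The other tested pieces were *nad7*, at 0.56 and 1.11, and exons 1 and 2 of *nad5*, at -0.42 and -0.22, and none of these 4 values was called. With the 3 libraries of the highest plastid share left out, *nad3* and *nad4* were not called in *prmt4a;4b* (adjusted p = 0.309 and 0.304).

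In complex III, *cob*, the apocytochrome b gene, had 39 reads in the 9 libraries and was not tested, and 15 of them were in *prmt4a;4b* library 3. Complex IV, the cytochrome c oxidase, had *cox2* and *cox3* tested, while *cox1* with 74 reads was not. The wild-type means of *cox2* and *cox3* were 4.33 and 7.67 reads, so they passed the filter only through the mutants. For *cox3* wild type had 6, 9 and 8 reads, *prmt5* had 15, 12 and 15, and *prmt4a;4b* had 12, 18 and 28. As scaled levels the *prmt4a;4b* libraries did not overlap wild type, and the log2 change was 1.58 (SE 0.53, adjusted p = 0.0377). The call was lost without wild-type library 1 (adjusted p = 0.113) or *prmt4a;4b* library 3 (0.187), and with the 3 libraries of the highest plastid share left out (0.279). For *cox2* the counts were 4, 4 and 5, then 11, 14 and 5, and 3, 20 and 12. Library 1 of *prmt4a;4b* was within the wild-type range, so the call at 1.61 (SE 0.71, adjusted p = 0.0951) rested on libraries 2 and 3, and it was lost without any 1 wild-type library (adjusted p = 0.107 to 0.202) or without *prmt4a;4b* library 3 (0.191), and without *prmt4a;4b* library 2 the gene fell below the filter. In *prmt5* the log2 changes of *cox3* and *cox2* were 0.71 (adjusted p = 0.311) and 1.01 (adjusted p = 0.242).

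Of the complex V genes, which encode subunits of the ATP synthase, 5 were tested, 0 were called in *prmt5* and 2 in *prmt4a;4b*. The most read of them was *atp1*, the alpha subunit of the catalytic head, with 1.54, 2.10 and 1.90 CPM in wild type, 3.19, 2.26 and 2.66 in *prmt5* plants and 2.66, 2.72 and 3.65 in *prmt4a;4b* plants. All mutant libraries were above all wild-type libraries, by a log2 change of 0.50 (adjusted p = 0.148) and 0.70 (SE 0.25, adjusted p = 0.0478). The call in *prmt4a;4b* was lost without wild-type library 1 (adjusted p = 0.159) or *prmt4a;4b* library 3 (0.215), and with the 3 libraries of the highest plastid share left out (0.366). The subunit c gene *atp9* had 0.645, 0.479 and 0.745 in wild type, 0.798, 0.397 and 0.260 in *prmt5* plants and 1.03, 1.45 and 1.31 in *prmt4a;4b* plants. It overlapped wild type in *prmt5*, at a log2 change of -0.41 (adjusted p = 0.552), and was above it in all *prmt4a;4b* libraries, at 1.03 (SE 0.38, adjusted p = 0.0525). That call was lost without wild-type library 1 or 2 (adjusted p = 0.113 and 0.149) or *prmt4a;4b* library 2 or 3 (0.164 and 0.137), and with the 3 libraries of the highest plastid share left out (0.179). The direct difference between the mutants was 1.40 (SE 0.44, adjusted p = 0.0363). Both *atp6* genes, which share a repeated stretch of the genome, and *atp8* were not called in either mutant, and *atp8* at -0.61 and -0.23 is one of the members whose count equals that of its nuclear copy.

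Of the 5 cytochrome c maturation genes, 2 were tested in *prmt5*, *ccmFC* and *ccmFN2*, and 1 in *prmt4a;4b*, *ccmFC*. The one with a call was *ccmFC*. Its levels were 1.32, 0.932 and 0.819 CPM in wild type, 2.09, 0.695 and 1.18 in *prmt5* plants and 1.86, 2.93 and 3.04 in *prmt4a;4b* plants. Wild type and *prmt5* overlapped (log2 change 0.30, adjusted p = 0.608), and all *prmt4a;4b* libraries were above wild type (1.35, SE 0.31, adjusted p = 0.00636). Of the ribosomal proteins 3 of 7 were tested, and *rps3*, a protein of the small subunit, was called in *prmt4a;4b*. It had 0.706, 0.905 and 0.335 in wild type, 1.40, 1.12 and 1.07 in *prmt5* plants and 1.39, 1.48 and 2.46 in *prmt4a;4b* plants, without overlap of either mutant and wild type. The log2 change was 0.80 (adjusted p = 0.155) and 1.42 (SE 0.42, adjusted p = 0.0201), and without *prmt4a;4b* library 3 the latter was 1.09 (adjusted p = 0.114). With the 3 libraries of the highest plastid share left out it was 1.14 (adjusted p = 0.250). Of the *rps3* exons 9.93% lie in a nuclear copy, and of its intron none.

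The maturase gene *matR*, whose protein is related to splicing factors of group II introns, had 17, 10 and 20 reads in wild type, 41, 47 and 34 in *prmt5* plants and 33, 35 and 53 in *prmt4a;4b* plants. All mutant libraries were above all wild-type libraries. The log2 change was 1.18 (SE 0.43, adjusted p = 0.0560) in *prmt5* and 1.58 (SE 0.45, adjusted p = 0.0165) in *prmt4a;4b*. In *prmt5* the call was lost without wild-type library 1 or 2 or *prmt5* library 1 or 2 (adjusted p = 0.119, 0.164, 0.136 and 0.120). In *prmt4a;4b* it was lost with the 3 libraries of the highest plastid share left out (1.21, adjusted p = 0.268). All 2019 bases of *matR* lie inside the intron between exons 4 and 5 of *nad1*, so reads of that unspliced intron and of *matR* cannot be told apart. The tRNA genes were mostly not measured, since 2 of 21 were tested, and 1, a serine tRNA named TRNS.2 in the files, was called in *prmt4a;4b* (1.25, adjusted p = 0.0966). That call was lost in 5 of the 6 fits without 1 library (adjusted p up to 0.281), under DESeq2 (adjusted p = 0.112) and with the replicate block (adjusted p = 0.108). Both tested tRNA genes passed the filter only through the mutants, with wild-type means of 9.67 and 8.33 reads.

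**Figure D3:**
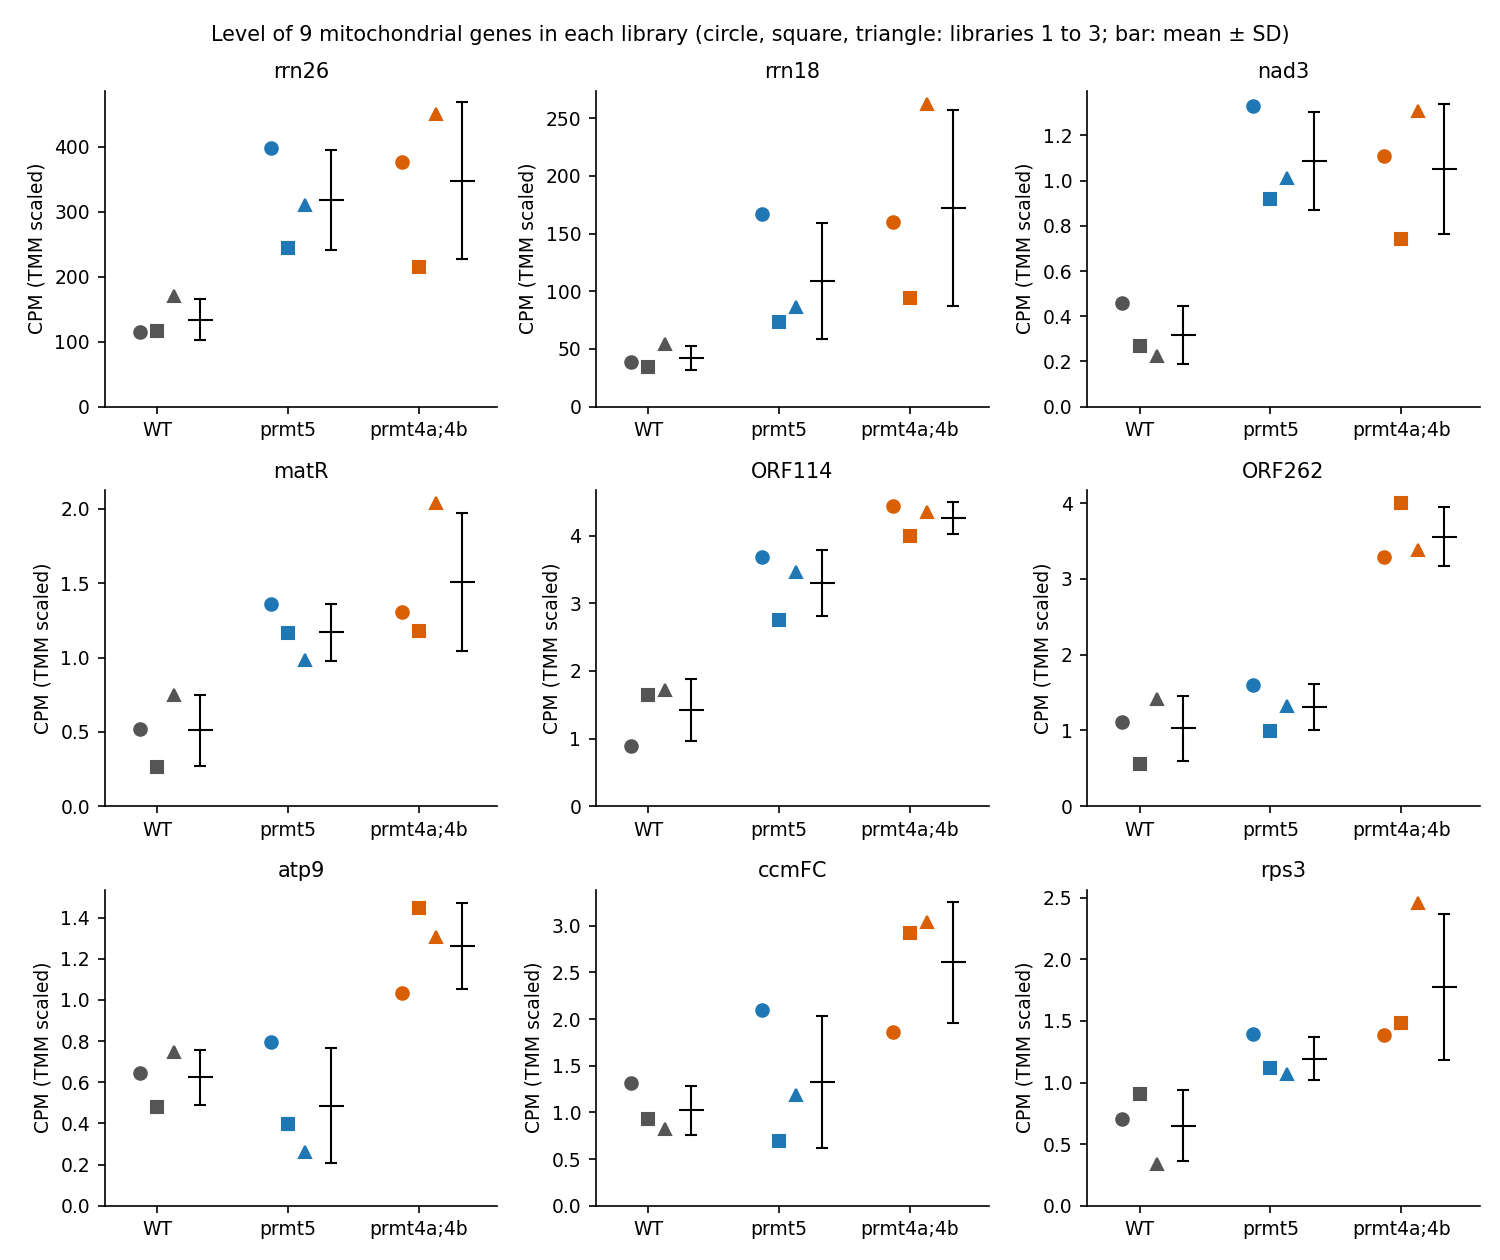
The vertical axis of each panel gives CPM of 1 gene, the points are the 3 libraries of each genotype, and the bar is the mean ± SD. In *rrn26*, *rrn18*, *nad3*, *matR*, ORF114 and *rps3* all libraries of both mutants lie above wild type, whereas in ORF262, *atp9* and *ccmFC* only those of *prmt4a;4b* do.

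Of the 84 ORF genes, 15 were tested in *prmt5* with 3 called, and 17 in *prmt4a;4b* with 9 called, at median log2 changes of 0.61 and 1.23. ORF114 had 0.891, 1.65 and 1.71 CPM in wild type, 3.69, 2.75 and 3.47 in *prmt5* plants and 4.44, 4.00 and 4.35 in *prmt4a;4b* plants. ORF118 had 0.921, 1.84 and 1.82, then 3.42, 2.78 and 3.41, and 4.44, 3.77 and 4.81. In both genes no mutant library overlapped wild type, and the log2 changes were 1.17 (SE 0.29, adjusted p = 0.0103) and 1.59 (SE 0.27, adjusted p = 0.00103) for ORF114 and 1.02 (SE 0.29, adjusted p = 0.0202) and 1.51 (SE 0.28, adjusted p = 0.00174) for ORF118. They are not independent, as ORF114 shares 203 bases with ORF118 and 44 with *nad3*.

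ORF294 and ORF262 were called in *prmt4a;4b* only. ORF294 had 0.829, 0.479 and 0.894 CPM in wild type, 1.56, 1.34 and 1.10 in *prmt5* plants and 2.22, 2.69 and 2.38 in *prmt4a;4b* plants. The 3 groups formed an order without overlap, with a log2 change of 0.83 (adjusted p = 0.105) in *prmt5* and 1.74 (SE 0.33, adjusted p = 0.00187) in *prmt4a;4b*. ORF262 had 1.11, 0.559 and 1.42 in wild type, 1.60, 0.992 and 1.33 in *prmt5* plants and 3.29, 4.00 and 3.38 in *prmt4a;4b* plants. Here *prmt5* overlapped wild type (0.32, adjusted p = 0.563) and *prmt4a;4b* was above both (1.82, SE 0.32, adjusted p = 0.00133). The nuclear copy of ORF262, AT2G07777, had 27, 14 and 27 reads, then 29, 32 and 28, and 69, 78 and 60, with log2 changes of 0.19 (adjusted p = 0.756) and 1.82 (adjusted p = 0.00260).

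When the mutants were set against one another with all 9 libraries in the fit, 39 members were tested, and 7 were higher in *prmt4a;4b* than in *prmt5* and 0 lower, beside 8.37% of all 21193 genes called higher and 9.39% called lower. At an unadjusted p under 0.05, 0 were lower, and DESeq2 called 8 higher and 0 lower. The 7 were *atp9*, *ccmFC*, ORF262, ORF294, ORF315, ORF131 and ORF111D, the last 3 named after their values were seen. ORF131 lies within the span of ORF315, so their reads overlap. In 14 members all *prmt4a;4b* libraries were above all *prmt5* libraries, as in 19.3% of all genes tested. ORF262 kept its call without each of the 9 libraries in turn. The number called fell to 2 without *prmt5* library 2 or 3 or *prmt4a;4b* library 3, and to 3 without *prmt4a;4b* library 2.

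The introns of these genes were read more densely than their exons. The files list 18 introns of 12 mitochondrial genes outside annotated splicing events, of 120717 introns in all. Over the 9 libraries the density of reads per kb was 1.24 to 12.4 times that of the exons of the same gene, with a median of 5.99. Over 47491 introns of the series with at least 9 reads the median was 0.0588, and 2.31% were denser than their exons. The introns with no base in a nuclear copy showed it too, with 199 reads per kb in the *rps3* intron against 22.1 in its exons, 135 against 11.1 in *cox2*, and 51.1 against 6.77 between exons 4 and 5 of *nad5*. The 18 introns together had 1390, 1261 and 1176 reads in wild type, 1880, 1878 and 1741 in *prmt5* plants and 1784, 2094 and 2041 in *prmt4a;4b* plants, and the exons of the 12 genes had 130, 119 and 86, then 183, 158 and 177, and 163, 255 and 266.

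Group II introns often start with GUGCG in the RNA, read as GTGCG in the gene, and the end of exon 1 of *cox2* (Mt:6934-7023, plus strand of the reference) is shown as an example of a densely read one, with those first 5 intron bases in capitals.
cox2: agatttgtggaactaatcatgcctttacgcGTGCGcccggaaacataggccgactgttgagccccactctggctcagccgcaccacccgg
Of the 18 member introns, 9 (50%) start with GTGCG on the strand of the gene in the reference, against 0.477% of 120457 nuclear introns of the table, and 9 start with GT.

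**Figure D4:**
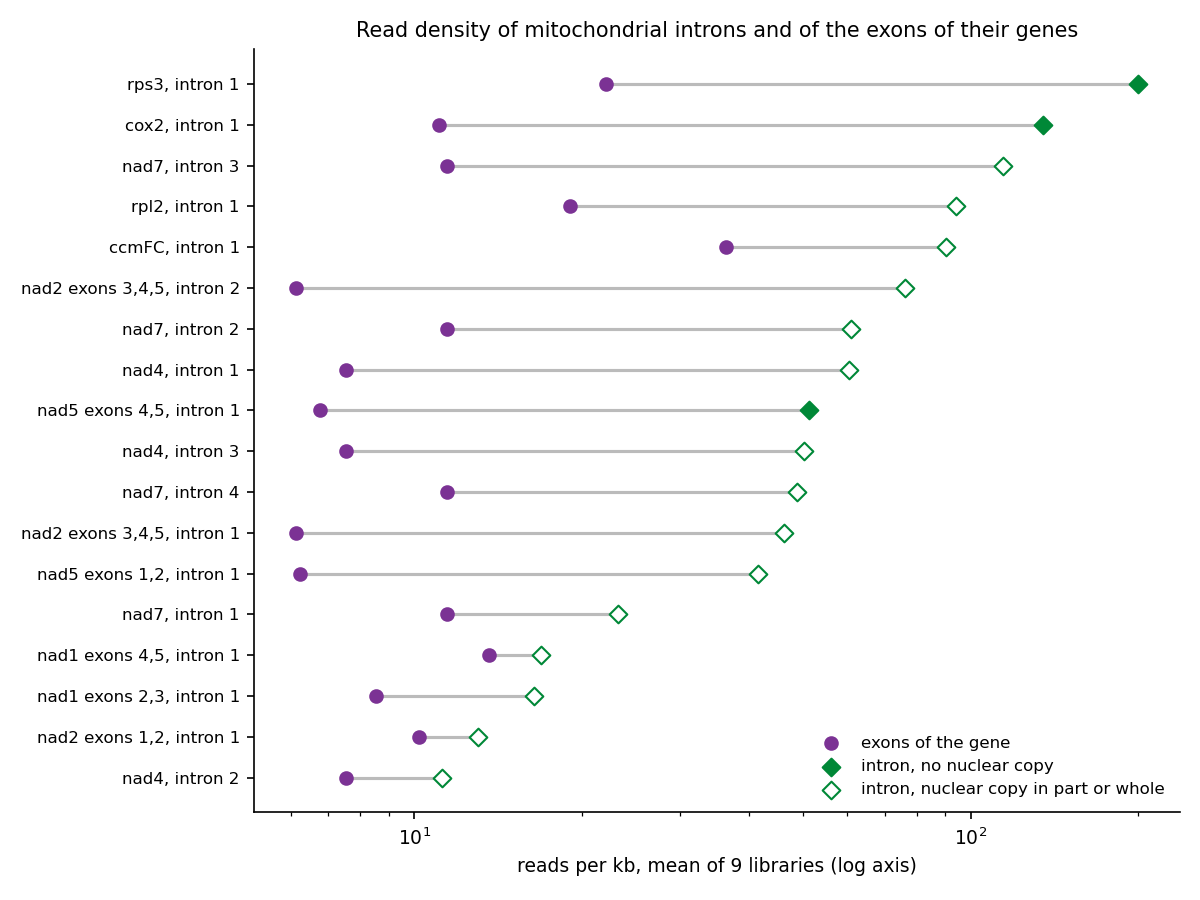
For each of the 18 introns the horizontal log axis gives reads per kb as the mean of 9 libraries, with circles for the exons of the gene and diamonds for the intron, filled where the intron has no nuclear copy. Every diamond lies to the right of its circle, from 1.24 times in *nad1* exons 4,5 to 12.4 times in the second intron of *nad2* exons 3,4,5.

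The test of introns used a lowest mean of 5 reads, an adjusted p below 0.15, a log2 change exceeding 0.58 and, in addition, a splicing index that moved by more than 0.58 on the log2 scale, where the index is the intron density over that of the gene's exons. In *prmt5*, 5 of the 18 passed the limits on p and log2 change, all higher, beside 31.5% of 20967 introns tested that passed as higher and 9.1% as lower. With the index as well 2 were called higher, beside 28.8%, and 0 lower, beside 7.22%. The 2 were the introns of *nad2* exons 1,2 (6, 2 and 4 reads in wild type, 20, 16 and 18 in *prmt5* plants; log2 change 1.98, adjusted p = 0.0119; index change 1.45) and of *nad5* exons 1,2 (21, 12 and 31 reads, then 48, 46 and 38; 0.84, adjusted p = 0.112; index change 1.22). The median over the 18 was 0.31 for the introns and -0.36 for the index, against 0.59 and 0.56 over all introns tested. The count of calls was 1 without wild-type library 1 or *prmt5* library 2 and 4 without wild-type library 3.

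In *prmt4a;4b*, 14 of the 18 introns passed the limits on p and log2 change, all higher, beside 16.2% of 16090 introns tested that passed as higher and 11.4% as lower, and 10 were called with the index, beside 13.6% called higher, with 0 lower, beside 9.37%. All 18 log2 changes were positive, with a median of 0.95 against 0.08 over all introns. The median index change was -0.43 against 0.17, and in 11 of the 18 the index was lower than in wild type. That is a larger change in the exons than in the intron, but some of these falls rest on few exon reads. Wild type had 0, 0 and 0 exon reads in *nad5* exons 4,5, 0, 2 and 4 in *nad2* exons 3,4,5 and 4, 4 and 5 in *cox2*. At such counts the pseudocount of 0.5 weighs on the index, in *prmt5* too. Of the 10 called introns the index was higher in 4, those of *nad2* exons 1,2, *nad5* exons 1,2, *nad1* exons 2,3 and *nad1* exons 4,5, of which the last holds *matR*. For *nad1* exons 4,5 that rise rested on *prmt4a;4b* library 1, which had 0 exon reads. Its log2 index was 3.71, against -0.78 and 0.33 in libraries 2 and 3 and -0.37, 0.62 and 0.78 in wild type. The index was lower in the other 6, introns 1 and 3 of *nad4*, both introns of *nad2* exons 3,4,5 and those of *rps3* and *cox2*. The *rps3* intron had 245, 234 and 168 reads in wild type, 421, 413 and 372 in *prmt5* plants and 319, 317 and 348 in *prmt4a;4b* plants, without overlap, with log2 changes of 0.76 (adjusted p = 0.0255) and 0.88 (adjusted p = 0.0194). The third intron of *nad7* rose in *prmt4a;4b* by 1.32 (adjusted p = 0.00236) from 83, 81 and 71 to 162, 195 and 140 reads, with an index change of 0.16. The count of calls was 4 without wild-type library 2, 6 without wild-type library 1 and 5 without *prmt4a;4b* library 3.

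Most nuclear genes whose products work with the mitochondrial ones in the respiratory complexes were not called. Among 36 nuclear genes of subunits of the respiratory complexes, 2 were higher and 6 lower in *prmt5*, and 3 higher and 9 lower in *prmt4a;4b*, with median log2 changes of 0.09 and -0.30, and 28 and 24 were not called. Over all genes tested, *prmt5* had 11.9% called higher and 14.2% lower, while *prmt4a;4b* had 13.8% and 12%. The largest falls were in GAMMA CA3, a carbonic anhydrase-like subunit of complex I (1848, 2084 and 1168 reads in wild type, 652, 1198 and 794 in *prmt5* plants, 508, 618 and 562 in *prmt4a;4b* plants; log2 change -1.11, adjusted p = 0.000901, and -1.31, adjusted p = 9.61e-05), and in AT5G47030, annotated as the delta or epsilon subunit of the F1 part of the ATP synthase (-1.04 and -1.19). The rises were in GAMMA CAL1, a protein of the same family (0.66 and 0.63), and, called in 1 mutant each, in SDH2-1, an iron-sulfur subunit of complex II (0.85 in *prmt5*), and in GAMMA CAL2 and AT5G11770, the 20 kDa subunit of complex I (0.64 and 0.65 in *prmt4a;4b*). A called fall of a nuclear subunit and a called rise of a mitochondrial subunit thus occurred in complex I in both mutants and in complex V in *prmt4a;4b*. In complex I the nuclear genes moved both ways, since GAMMA CAL1 rose in both mutants and GAMMA CAL2 and AT5G11770 in *prmt4a;4b*. The called mitochondrial subunits of these complexes, *nad3*, *nad4*, *atp1* and *atp9*, lie to 100% in a nuclear copy.

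Of 34 nuclear genes for mitochondrial RNA processing, 10 were higher and 2 lower in *prmt5*, and 8 higher and 1 lower in *prmt4a;4b* (medians 0.37 and 0.21), beside the same 11.9% and 14.2%, and 13.8% and 12%, of all genes tested, and 22 and 25 were not called. RIP1, an editing factor of organelles, rose in both, from 5913, 6017 and 5589 reads to 14864, 14029 and 14534 and to 7632, 10684 and 9674 (1.16 and 0.91). PMH1, a mitochondrial RNA helicase, rose in *prmt5* only (0.98, and -0.05 in *prmt4a;4b*, direct difference -1.08, adjusted p = 7.84e-05). BIR6, a splicing factor of a *nad7* intron, rose by 0.94 and 1.34, and MEF1, an editing factor, was called in *prmt4a;4b* (1.05, against -0.07 in *prmt5*). EMB2730, annotated as a protein of the ribonuclease II/R family, fell in both (-0.60 and -0.65), and AT5G04050, an intron maturase of type II, fell in *prmt5* (-0.62, against -0.20).

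Part of the genes of alternative respiration and mitochondrial stress differed between the mutants in the direct test. Of 16 tested in *prmt5*, 6 were higher and 2 lower, beside 11.9% and 14.2% of all genes tested. Of 14 tested in *prmt4a;4b*, 1 was higher and 3 were lower, beside 13.8% and 12%. In the direct comparison 9 of 16 were lower in *prmt4a;4b* and 0 higher, beside 9.39% and 8.37% of all genes in that comparison. AOX1C, an alternative oxidase that passes electrons to oxygen without complexes III and IV, had 2, 3 and 7 reads in wild type, 29, 37 and 65 in *prmt5* plants and 6, 1 and 1 in *prmt4a;4b* plants (3.23 in *prmt5*, direct difference -3.60). NDB4, an alternative NADH dehydrogenase, had 5, 8 and 1, then 27, 85 and 62, and 4, 0 and 0 (3.43 in *prmt5*, direct difference -4.90). AOX1C and NDB4 had under 10 reads in every wild-type and *prmt4a;4b* library. They thus passed the filter only through *prmt5*, where they were high. AT2G21640, annotated as a marker of the oxidative stress response, moved in opposite directions, with 58, 123 and 67 reads in wild type, 100, 231 and 236 in *prmt5* plants (1.03) and 31, 27 and 21 in *prmt4a;4b* (-1.36, direct difference -2.43). AOX1D was called in *prmt4a;4b* (3.63) on 1 library, with 156 reads in library 1 against 5 and 6 in the others and 2, 11 and 4 in wild type. PUMP1, an uncoupling protein of the inner membrane, fell in both (-0.75 and -0.71), NDC1 fell in *prmt5* (-0.63) and NDA1 in *prmt4a;4b* (-0.75), both alternative NADH dehydrogenases.

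The organelle RNA of the other kind and the nuclear copies were read beside these lists. Over all genes tested, 11.9% were called higher and 14.2% lower in *prmt5*, and 13.8% and 12% in *prmt4a;4b*. Of the plastid-encoded genes, 32 of 60 tested were higher and 0 lower in *prmt5*, and 44 of 65 were higher and 0 lower in *prmt4a;4b*, at medians of 0.84 and 1.75. Of the 9 genes of RNA made without a poly(A) tail, 8 were higher in each mutant, at medians of 1.32 and 2.14. These 9 include plastid 16S rRNA genes, so the lists overlap. In *prmt4a;4b* the 1 gene not called was at -0.41, with every library below wild type. Of 80 nuclear genes over a copy of a member, 27 were tested, with 5 higher and 1 lower in *prmt5* and 15 higher and 2 lower in *prmt4a;4b*. Those that fell in *prmt4a;4b* were AT2G07776 (20, 24 and 13 reads in wild type, 3, 5 and 0 in *prmt4a;4b*; -2.52) and AT2G07663 (18, 18 and 9, then 3, 4 and 0; -2.36), both over the copy of ORF109, and AT2G07776 also fell in *prmt5* (-1.17, adjusted p = 0.0882).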

How the data were processed

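RNA-seq was made from whole plants of 3 genotypes, with 9 libraries. Per the submitters' processing notes the authors aligned reads to TAIR10 with TopHat2 2.0.9 and used edgeR 3.4.2 in R 3.0.2. The authors deposited raw whole-number counts per gene and per intron for each library, and how reads with several matching places were counted is not given in the sources used here. Tables of the authors' own fold changes and p-values were not used. The counts were tested with edgeR 4.0.16 (limma 3.58.1, R 4.3.3; TMM, glmQLFit, glmQLFTest, Benjamini-Hochberg over all genes or introns tested), each mutant with wild type, and all 9 libraries for the mutants against each other. DESeq2 1.42.0 was an alternative. SEs of log2 changes were derived from the F statistics. Shares were compared with the exact two-sided permutation test (scipy 1.17.1). The scaling was also run on nuclear genes only, on members summed with their nuclear copies, with a replicate block, without each library and without a filter. The fits were tested on simulated counts. Copies were found with BLAST+ 2.17.0 in RefSeq TAIR10.1, whose mitochondrial sequence (367808 bases) is of another accession than that of the files, so positions printed as Mt are those of the reference. A pseudocount of 0.5 entered the splicing index.

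Named with values were the members of known function called in a mutant or between the mutants, the 3 of highest reads per kb, the 5 ORF and tRNA genes per mutant and direction with the largest called change, a mean of at least 50 reads and no overlap, and the 2 most changed genes of each nuclear list in each direction. Members and lists were chosen with earlier results of these data known. Tissue markers and lists of nuclear genes came from general knowledge, and their names and roles from the reference. Totals of 25029646 to 39904677 gene reads per library still leave most members with under 50 reads, so counting error is a large part of their spread.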

Additional observations from a re-analysis of the deposited data

Results flagged for a closer look

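For 7 members the effects of the mutations differed in the direct test between *prmt4a;4b* and *prmt5* (edgeR's quasi-likelihood test, all 9 libraries, Benjamini-Hochberg adjusted p over all genes), always with the higher level in *prmt4a;4b*. The log2 difference was 1.46 for ORF262 (SE 0.31, adjusted p = 0.00600), 1.40 for *atp9* (SE 0.44, adjusted p = 0.0363), 0.87 for ORF294 (SE 0.30, adjusted p = 0.0506), 1.68 for ORF131 (SE 0.57, adjusted p = 0.0509), 1.29 for ORF315 (SE 0.45, adjusted p = 0.0559), 1.00 for *ccmFC* (SE 0.37, adjusted p = 0.0690) and 1.03 for ORF111D (SE 0.43, adjusted p = 0.0975). In all 3 libraries of *prmt4a;4b* ORF315 had 18, 30 and 29 reads, against 15, 13 and 12 in *prmt5*. ORF131, inside ORF315, had 13, 11 and 13 against 3, 8 and 4, and ORF111D had 27, 25 and 22 against 9, 15 and 23. ORF131 passed the filter on low counts only through *prmt4a;4b*, where it was high. ORF262 alone kept the call without each library in turn, with an adjusted p of at most 0.0329.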

How the results depend on the processing

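The count of members called in *prmt5* was 7, and 6 to 8 without 1 library. It was 11 without a filter on low counts (9 higher, 2 lower) and 13 with members summed with their nuclear copies (10 higher, 3 lower). In *prmt4a;4b* it was 21, and 14 (without *prmt4a;4b* library 3) to 21 without 1 library. With members summed with their nuclear copies it was 34 (31 higher, 3 lower). Summing lets members pass the filter through nuclear reads. It also adds the same nuclear gene to several members, as AT2G07674 to ORF114, ORF118 and ORF153B. Counts from summing are thus not of separate results and cannot be set beside the main ones. The members tested and the share of all genes called under each alternative are not given here. Scaling by DESeq2 size factors and from nuclear genes only gave 8 and 7 in *prmt5* and 21 each in *prmt4a;4b*, with 0 lower. Between the mutants it was 7, and 2 to 8 without 1 library, and 2 at an adjusted p under 0.05. Of the called members, 6 of 7 in *prmt5*, 12 of 21 in *prmt4a;4b* and 1 of 7 between the mutants kept the call without each library in turn. Introns called were 2 in *prmt5* (1 to 4 without 1 library, 1 at an adjusted p under 0.10) and 10 in *prmt4a;4b* (4 to 8). Of the values of named members under all alternatives, 792 kept side and direction, 46 lost the call, 8 gained one and 0 changed direction while called. The cause of these changes was not tested, apart from the smaller or larger set of genes or libraries that the alternative itself brings.

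The replicate numbers were not used to pair the samples. Over 9 same-numbered pairs the deviations correlated at -0.159 to 0.163, with 2 above 0.1. Over 18 pairs of other number they correlated at -0.105 to 0.188, also with 2 above 0.1. These correlations cannot tell whether libraries were grown or prepared together. With the replicate block 7 members were called in *prmt5*, 19 in *prmt4a;4b* and 7 between the mutants, and 2 and 10 introns.

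The difference of the mitochondrial share from wild type was 0.0234 percentage points in *prmt5* (0.0165 to 0.0282 without 1 library) and 0.0311 in *prmt4a;4b* (0.0231 to 0.0392), and 0.00774 between the mutants (-0.000308, without *prmt4a;4b* library 3, to 0.0158). Without the rRNA genes these were 0.00203 (0.00136 to 0.00251), 0.00342 (0.00296 to 0.00377) and 0.00139 (0.000907 to 0.00205). The sign turned with 2 denominators chosen after seeing the data. Per 100 nuclear rRNA reads the differences were -0.592, -2.21 and -1.62 reads for *prmt5*, *prmt4a;4b* and the mutants against each other, and per 100 plastid rRNA reads -1.62, -3.29 and -1.67. Without the mitochondrial rRNA genes they were -0.458, -0.525 and -0.0676, and -0.460, -0.612 and -0.152. Most members had under 50 reads a library, and changes in those not tested were not detectable at this depth.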
